A study of Homo sapiens with 8 samples.

Results

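The 41 genes described here are used by dividing cells: 17 act around DNA replication in S phase and 24 around mitosis. They were chosen by name as textbook proliferation genes, with earlier results of these data known. All 41 were found among the 63241 gene rows by Ensembl identifier. The study sequenced RNA in 8 libraries whose labels name HSC3, a long-established line from a human squamous carcinoma of the mouth. By their labels, 4 libraries were transfected with an siRNA against COL1A1 (knockdown) and 4 with the siRNA called si-NC (control). In both groups 100 pmol of siRNA was delivered with the lipid reagent Lipofectamine 3000, and cells were kept for 48 hours. The sample labels name no other agent or genetic change, while the column names of the count table say KO for the knockdown libraries. The labels do not state whether replicates were grown separately; each p-value therefore covers only the variation among these libraries.

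Cells that enter the cycle first switch on genes under the E2F transcription factors, which supply the cyclins, the helicase and the nucleotides for DNA replication. A later wave, under the DREAM and MuvB complexes with MYBL2 and FOXM1, supplies the kinases, motors and checkpoint proteins of mitosis. Resting and differentiated cells hold both sets low, and in stratified squamous epithelium division is a feature of the basal and lowest suprabasal layers. A carcinoma line growing in culture is known for carrying both sets in its dividing cells.

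The 2 waves are read from different promoter words, so promoters were searched on both strands for TTTGAA, the common form of the cell cycle homology region (CHR), and for the E2F words TTTGGCGC, TTTCCCGC, TTTGCCGC and TTTCGCGC. RefSeq promoter windows (GRCh38.p14, 250 bases before to 50 after the transcript start) were matched by symbol for 32 of the 41 members. TTTGAA lay in 11 of 18 mitosis members (61.1%) and in 1 of 14 S phase members (7.14%, RRM1), against 18.2% of 27305 genes with a window. An E2F word lay in 10 of 14 S phase members (71.4%) and in 2 of 18 mitosis members (11.1%, CDK1 and CENPA), against 3.99% of all genes. The CCAAT box, bound by NF-Y, lay in 15 of 18 mitosis and 10 of 14 S phase members, against 39.7% of all genes. A CCAAT match overlapped the TTTGAA nearest the MKI67 start and one E2F word of MCM7, and no other TTTGAA or E2F match of a member overlapped another motif. A match is a description of the letters, not a shown binding site.

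The next 6 promoters show the 2 words in genes whose levels are described here, each from 150 bases before to 20 after the RefSeq start, 5′ to 3′ on the gene's strand in GRCh38.p14. Capitals mark TTTGAA in the first 3, which belong to mitosis members, and an E2F word or its reverse complement in the last 3, which belong to S phase members.
MKI67, chr10:128126404-128126573, minus strand: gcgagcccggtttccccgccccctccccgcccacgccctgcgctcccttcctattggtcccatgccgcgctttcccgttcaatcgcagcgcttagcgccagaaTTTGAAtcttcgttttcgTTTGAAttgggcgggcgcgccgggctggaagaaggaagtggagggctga
CCNB2, chr15:59104996-59105165, plus strand: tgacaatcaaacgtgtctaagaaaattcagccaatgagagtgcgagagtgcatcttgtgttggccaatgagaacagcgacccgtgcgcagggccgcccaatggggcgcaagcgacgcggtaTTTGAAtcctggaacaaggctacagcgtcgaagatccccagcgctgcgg
PLK1, chr16:23678739-23678908, plus strand: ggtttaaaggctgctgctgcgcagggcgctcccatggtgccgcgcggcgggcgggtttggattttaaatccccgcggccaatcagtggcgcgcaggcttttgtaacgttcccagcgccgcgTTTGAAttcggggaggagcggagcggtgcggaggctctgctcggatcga
MCM2, chr3:127598261-127598430, plus strand: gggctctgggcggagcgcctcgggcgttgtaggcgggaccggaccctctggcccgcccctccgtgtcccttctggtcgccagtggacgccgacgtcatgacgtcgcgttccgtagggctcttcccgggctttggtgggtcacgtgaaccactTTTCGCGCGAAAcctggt
CDC6, chr17:40287729-40287898, plus strand: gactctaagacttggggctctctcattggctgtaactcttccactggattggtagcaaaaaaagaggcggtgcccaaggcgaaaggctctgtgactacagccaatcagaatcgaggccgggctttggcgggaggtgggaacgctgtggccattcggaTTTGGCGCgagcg
PCNA, chr20:5126603-5126772, minus strand: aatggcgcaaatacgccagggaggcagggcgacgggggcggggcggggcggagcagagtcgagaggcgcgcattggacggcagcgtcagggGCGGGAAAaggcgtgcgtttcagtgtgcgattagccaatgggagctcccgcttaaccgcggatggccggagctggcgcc
MKI67 held 2 TTTGAA words in this stretch, while CCNB2 and PLK1 held 1 each, 29 bases before the start. In MCM2 the capitals are 2 overlapping matches of TTTCGCGC, one on each strand.

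The libraries held 30684584 to 61795990 counts. Levels are CPM, a gene's count divided by the library's total and multiplied by 1000000, and intervals are exact binomial (Clopper-Pearson) at 95%, for counting error only. COL1A1, the siRNA target, stood at 368, 123, 301 and 155 CPM in knockdown 1 to 4 and at 88.9, 8183, 476 and 689 CPM in control 1 to 4, so the groups overlapped (log2 fold change -2.97, SE 1.30, edgeR adjusted p = 0.981). The label of a single carcinoma line was checked against markers of other cells. Skeletal muscle markers (19 of 20 measured) took 0.00502% to 4.97% of counts under the knockdown label and 0.0056% to 15.6% under the control label. Salivary gland markers (24 genes) took 0.00349% to 14.2% and 0.00369% to 15.4%. Squamous suprabasal and stress markers (13 genes), which squamous carcinoma lines can express, ran from 0.0412% to 16.3% and from 0.0155% to 3.54%. Leukocyte markers (14 genes) took 0.00505% to 0.0164% and 0.00908% to 0.0533% of counts. No gene of these 4 lists was at 0 in all libraries of a group. All 13 suprabasal and stress markers were fitted higher with the knockdown label (median log2 fold change 3.64; 0 called by edgeR, 4 at an unadjusted p under 0.05, 3 called by DESeq2). All 19 muscle markers were fitted lower (median -1.93; 0 called by edgeR, 0 at an unadjusted p under 0.05 and 0 by DESeq2). Fibroblast markers (10 genes, COL1A1 among them) took 0.0656% to 0.105% and 0.0836% to 1.96% of counts, with the 1.96% in control 2. All 10 were fitted lower with the knockdown label (median -1.89, 0 called by edgeR, 6 at an unadjusted p under 0.05, 0 by DESeq2). COL1A2 and COL3A1 stood at -2.81 and -2.79, beside -2.97 for COL1A1. The part of these cell types in the differences between labels was not tested, and groups are called by their labels.

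The proliferation genes split the libraries the same way under both labels. Summed over the 24 mitosis members, the level was 811, 47.3, 84.6 and 455 CPM in knockdown 1 to 4 and 16.8, 570.3, 343 and 429 CPM in control 1 to 4. Control 1, knockdown 2 and knockdown 3 thus lay below 100 CPM, and the other 5 libraries lay above 340. The summed 17 S phase members stood at 677, 189.6, 231 and 472 CPM in knockdown 1 to 4 and at 166, 612, 579 and 799.9 CPM in control 1 to 4. The 3 lowest libraries were again control 1, knockdown 2 and knockdown 3, but the sum ran over 4.82-fold for S phase against 48.3-fold for mitosis. In bulk RNA, fewer dividing cells and less of these RNAs in each cell cannot be told apart.

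**Figure D1:**
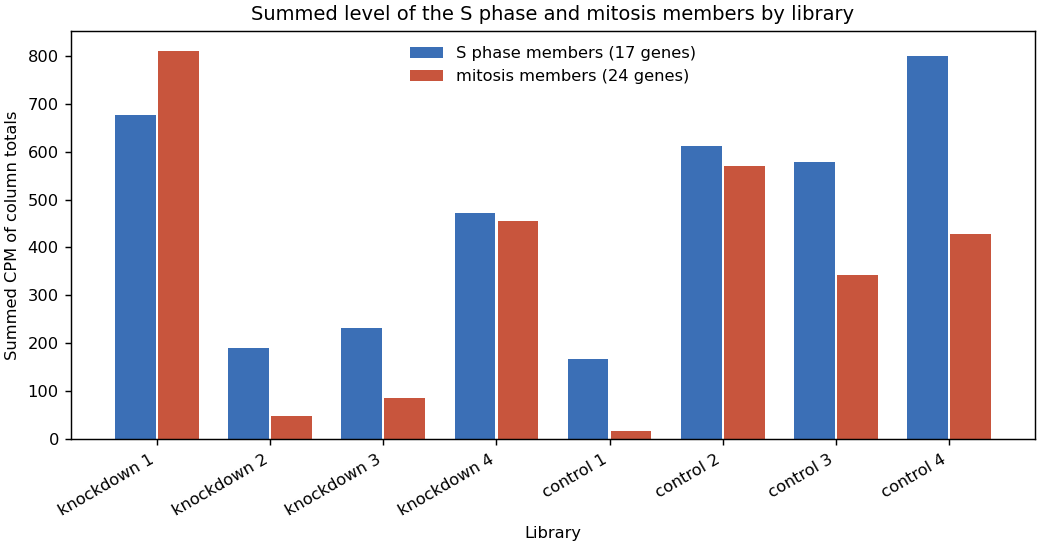
Summed CPM of column totals for the 17 S phase members (blue) and the 24 mitosis members (red) in each of the 8 libraries. The mitosis sum is 16.8 CPM in control 1, 47.3 in knockdown 2 and 84.6 in knockdown 3, and 343 to 811 in the other 5, while the S phase sum does not go below 166.

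Taken gene by gene, control 1, knockdown 2 and knockdown 3 were the 3 lowest libraries for 38 of the 41 members, namely all 24 mitosis members and 14 of 17 S phase members. The same 3 libraries were lowest for 6.24% of the 21192 genes tested. Control 1 was lowest for 31 members and knockdown 1 highest for 25, where over all tested genes these libraries were lowest for 24% and highest for 5.2%. Of 10 housekeeping genes, control 1 was lowest for 7, and the same 3 libraries were the 3 lowest for 3. The exceptions among the members were CCNE1, E2F1 and TYMS, each described below. Of the 328 member values, 9 rested on fewer than 10 counts, 1 of them at 0, all in control 1 or knockdown 2.

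**Figure D2:**
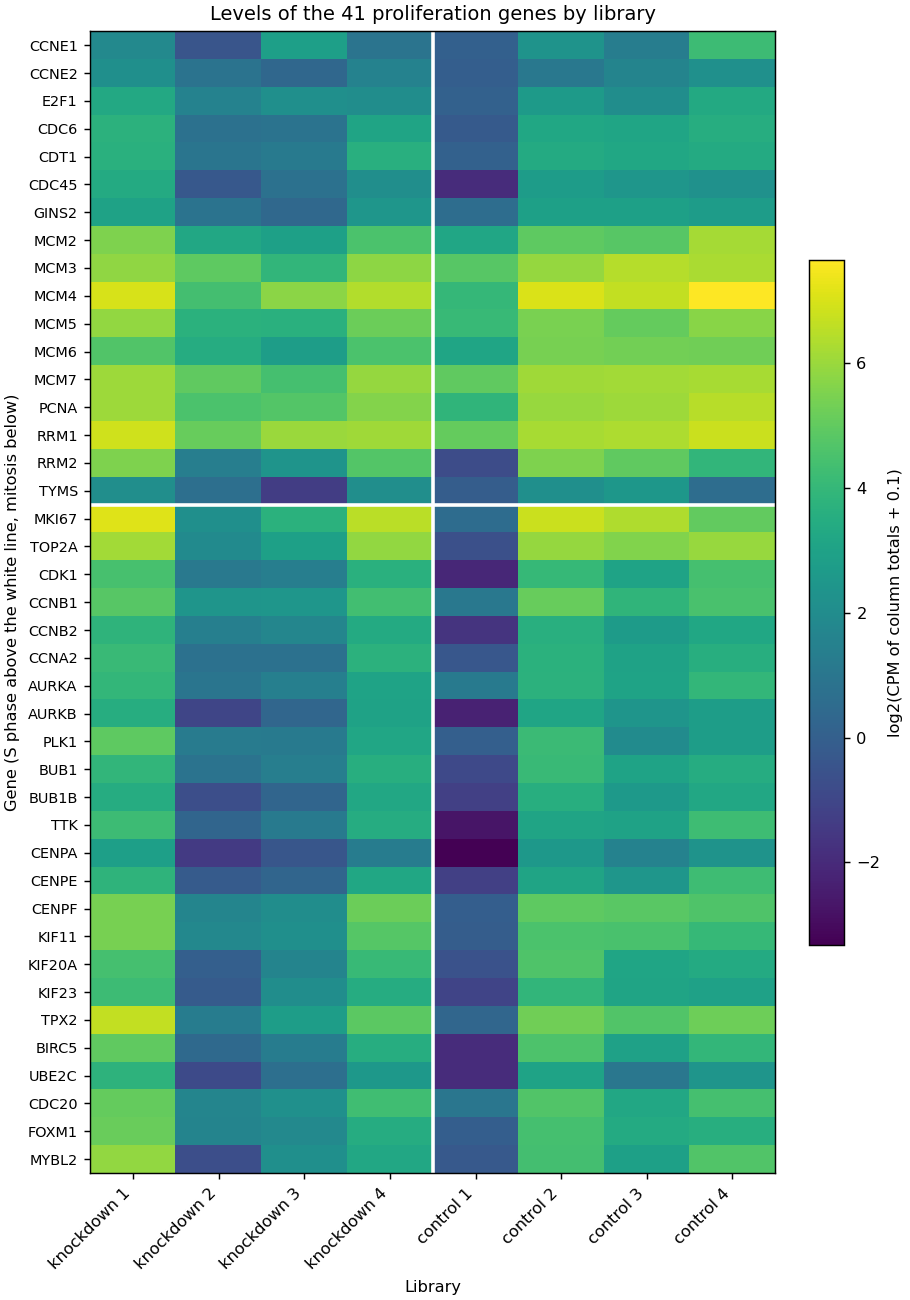
log2(CPM of column totals + 0.1) of each of the 41 members (rows, S phase above the white line and mitosis below) in the 8 libraries (columns, knockdown left and control right of the white line). The columns of control 1, knockdown 2 and knockdown 3 are darker than the other 5 over the mitosis rows, and the MCM, PCNA and RRM1 rows keep visible levels there, with MCM7 at 21.5 CPM or more in each library.

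MKI67 encodes Ki-67, the coat of mitotic chromosomes used in pathology to count cycling cells. It stood at 139, 4.37, 12.7 and 92.1 CPM in knockdown 1 to 4 and at 1.36, 111, 80.4 and 32.2 CPM in control 1 to 4. Its 50 counts in control 1 give an interval of 1.01 to 1.79 CPM, and its 8387 counts in knockdown 1 give 136.4 to 142.3. The highest and lowest libraries differed 102-fold (interval 77.7 to 138), with both extremes far outside counting error and one in each label. TOP2A, the topoisomerase that untangles sister chromatids, stood at 71.1, 3.72, 7.54 and 58.5 CPM across the knockdown libraries, against 0.544, 59.8, 47.1 and 63.3 CPM across the controls. The ratio of MKI67 to TOP2A CPM, not scaled by length, was 1.18 to 2.5 in 7 libraries and 0.509 in control 4, so these 2 genes did not keep 1 proportion.

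The cyclins A and B and their partner kinase CDK1 drive entry into mitosis. CDK1 stood at 21.9, 2.05, 2.47 and 12.4 CPM in knockdown 1 to 4 and at 0.136, 16.3, 8.06 and 21.3 CPM in control 1 to 4. CCNB1, cyclin B1, stood at 27.5, 5.21, 5.43 and 20.2 CPM across the knockdown libraries, against 1.98, 34.8, 14.6 and 22.9 CPM across the controls. Its 17.6-fold range was the second narrowest of the mitosis members, while CDK1 ran over 161-fold, with only 5 counts in control 1 (interval 69 to 498). CCNB2 and CCNA2, the B2 and A2 cyclins, ran from 0.217 to 14 CPM and from 0.68 to 17.5 CPM, both lowest in control 1 and highest in knockdown 1.

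The transcription factors of the mitotic wave were lowest in the same 3 libraries. FOXM1, a forkhead factor of G2 genes, stood at 35, 3.03, 3.48 and 11.2 CPM in knockdown 1 to 4 and at 0.87, 21.5, 10.3 and 11.9 CPM in control 1 to 4. MYBL2, B-Myb, stood at 58.6, 0.521, 4.33 and 9.57 CPM across the knockdown libraries, against 0.734, 20.8, 7.51 and 25.5 CPM across the controls. Knockdown 1 stood far above the other libraries of its label for MYBL2. Knockdown 2 was lowest, but its interval (0.298 to 0.847 CPM) overlapped that of control 1 (0.484 to 1.07 CPM).

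Among the mitotic kinases, PLK1, which acts at centrosomes, kinetochores and the midbody, stood at 30.9, 2.25, 2.14 and 8.88 CPM in knockdown 1 to 4. It stood at 0.897, 18, 3.88 and 6.86 CPM in control 1 to 4, so that control 3 lay within 2-fold of knockdown 2 and knockdown 3 for this gene. AURKA, the kinase of spindle poles, stood at 15.6, 1.83, 2.58 and 8.25 CPM across the knockdown libraries, against 2.12, 13.2, 8.16 and 15.5 CPM across the controls. Its 8.53-fold range was the narrowest of the 24 mitosis members. AURKB, the kinase of the chromosomal passenger complex, ran over 104-fold (interval 40.4 to 382) on 4 counts in control 1, and BIRC5, survivin of the same complex, over 194-fold (interval 89 to 530) on 6 counts.

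The spindle checkpoint genes BUB1, BUB1B and TTK delay anaphase until kinetochores are attached. BUB1 and BUB1B ran over 40-fold and 36.2-fold, both lowest in control 1 and highest in control 2. TTK had 2 counts in control 1, so its 344-fold range has an interval of 94.9 to 2842. The centromere genes behaved alike: CENPE, a kinetochore motor, and CENPF, a kinetochore and nuclear matrix protein, ran over 58.7-fold and 48.9-fold. CENPA, the centromeric histone H3 variant, was at 0 counts in control 1, where 3 counts would have been 0.0816 CPM. Its 7.29 CPM in knockdown 1 was 89.4-fold above that floor, and the counting interval of the ratio to control 1 starts at 72.4.

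The spindle motors KIF11, KIF20A and KIF23 and the assembly factor TPX2 set up the spindle and the cleavage site. TPX2 stood at 99.4, 2.35, 6.91 and 29.9 CPM in knockdown 1 to 4 and at 1.14, 39, 25.8 and 37.4 CPM in control 1 to 4. KIF11, KIF20A and KIF23 ran over 50.9-, 43.1- and 48.8-fold, and all were lowest in control 1. UBE2C and CDC20 drive the anaphase-promoting complex. UBE2C stood at 13.6, 0.456, 1.54 and 5.67 CPM across the knockdown libraries, against 0.163, 8.25, 1.92 and 5.17 CPM across the controls, and CDC20 ran from 1.88 to 33.6 CPM. The 16 core subunits and partners of that complex spread far less, with a median range of 3.2-fold, and UBE2S (13-fold) had the widest.

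The S phase members ranged less, and unequally by role. The MCM2 to MCM7 subunits form the ring helicase loaded on origins, and together they ran over 4.69-fold. MCM2 stood at 46.3, 9.58, 7.43 and 23.5 CPM in knockdown 1 to 4 and at 9, 30.2, 27.5 and 73.4 CPM in control 1 to 4. MCM3 stood at 57.5, 30.6, 15 and 55.6 CPM across the knockdown libraries, against 27.8, 61, 85.8 and 75.8 CPM across the controls. For both, knockdown 3 was the lowest library, control 1 and knockdown 2 came next, and the labels overlapped. MCM6 stood at 25.9, 11.1, 6.86 and 23.5 CPM in knockdown 1 to 4 and at 8.7, 42.3, 40.3 and 39.1 CPM in control 1 to 4. MCM7 stood at 66.8, 31.7, 21.5 and 60.6 CPM across the knockdown libraries, against 31.9, 69.2, 69.5 and 75.1 CPM across the controls. Knockdown 3 was lowest for 5 of the 6 subunits, and MCM4 was lowest in control 1.

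PCNA, the sliding clamp of DNA polymerases, stood at 65.4, 23.7, 26 and 49.6 CPM in knockdown 1 to 4 and at 14.5, 61.8, 67.1 and 89.3 CPM in control 1 to 4. Its range was 6.15-fold (interval 5.62 to 6.74). RRM1, the large subunit of ribonucleotide reductase, stood at 117, 34.3, 63.7 and 69.2 CPM across the knockdown libraries, against 33.7, 75.6, 79.3 and 111 CPM across the controls. RRM2, its small subunit and the one whose supply is tied to S phase, stood at 45.9, 2.48, 5.05 and 26.6 CPM in knockdown 1 to 4 and at 0.489, 45.8, 31.2 and 14.9 CPM in control 1 to 4. The subunits of this one enzyme thus had the narrowest (RRM1, 3.46-fold) and the widest (RRM2, 93.7-fold, interval 59.2 to 158) ranges of the S phase members. The ratio of RRM2 to RRM1 CPM was 0.0145 in control 1, 0.0722 in knockdown 2, 0.0792 in knockdown 3 and 0.135 in control 4, and 0.384 to 0.606 in the other 4.

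The origin licensing and firing factors summed ran over 13.4-fold. CDC6, which with CDT1 loads the helicase, stood at 13.3, 1.63, 1.7 and 8.52 CPM in knockdown 1 to 4 and at 0.761, 9.24, 8.78 and 11.4 CPM in control 1 to 4. CDT1 ran over 12.9-fold, and CDC45, which activates the helicase, ran over 63-fold (interval 28.8 to 172) on 6 counts in control 1. GINS2, the partner of CDC45 in the active helicase, ran over 6.63-fold with its lowest value in knockdown 3.

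Of the S phase entry genes, CCNE1 and E2F1 departed from the shared set of 3 lowest libraries, as did TYMS. CCNE1, cyclin E1, stood at 3.5, 0.652, 7.24 and 1.75 CPM in knockdown 1 to 4 and at 0.924, 4.95, 2.42 and 18.5 CPM in control 1 to 4. Knockdown 3 thus held the second highest CCNE1 level while being among the 3 lowest libraries for every mitosis member. The ratio of CCNE1 to CCNE2 CPM was 6.14 in knockdown 3 and 4.21 in control 4, and 0.385 to 2.45 in the other 6. E2F1 stood at 9.87, 2.8, 4.28 and 4.11 CPM across the knockdown libraries, against 0.979, 6.2, 4.03 and 10.1 CPM across the controls, with knockdown 3, knockdown 4 and control 3 nearly level. TYMS, thymidylate synthase, was lowest at 0.302 CPM in knockdown 3, followed by 0.843 CPM in control 1 and 1.44 CPM in control 4, against 5.46 CPM in control 3. Knockdown 2 came next at 1.53 CPM (interval 1.13 to 2.04), overlapping the 1.13 to 1.81 of control 4. The departure of TYMS thus lay within counting error. ENOSF1 on the opposite strand covers 39.2% of TYMS exon bases in GENCODE 29, and INTS8 covers 37.1% of those of CCNE2. Without a stated strand setting such reads cannot be told apart, so these 2 levels are uncertain. Opposite-strand exons cover over 10% of the exon bases of MCM2, PLK1 and FOXM1 too. On the same strand AC007240.1 covers 20.2% of RRM2 exon bases and BUB1B-PAK6 covers 10.2% of those of BUB1B. A strand setting would not separate those reads, so the RRM2 and BUB1B levels and the RRM2 to RRM1 ratio are uncertain too.

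**Figure D3:**
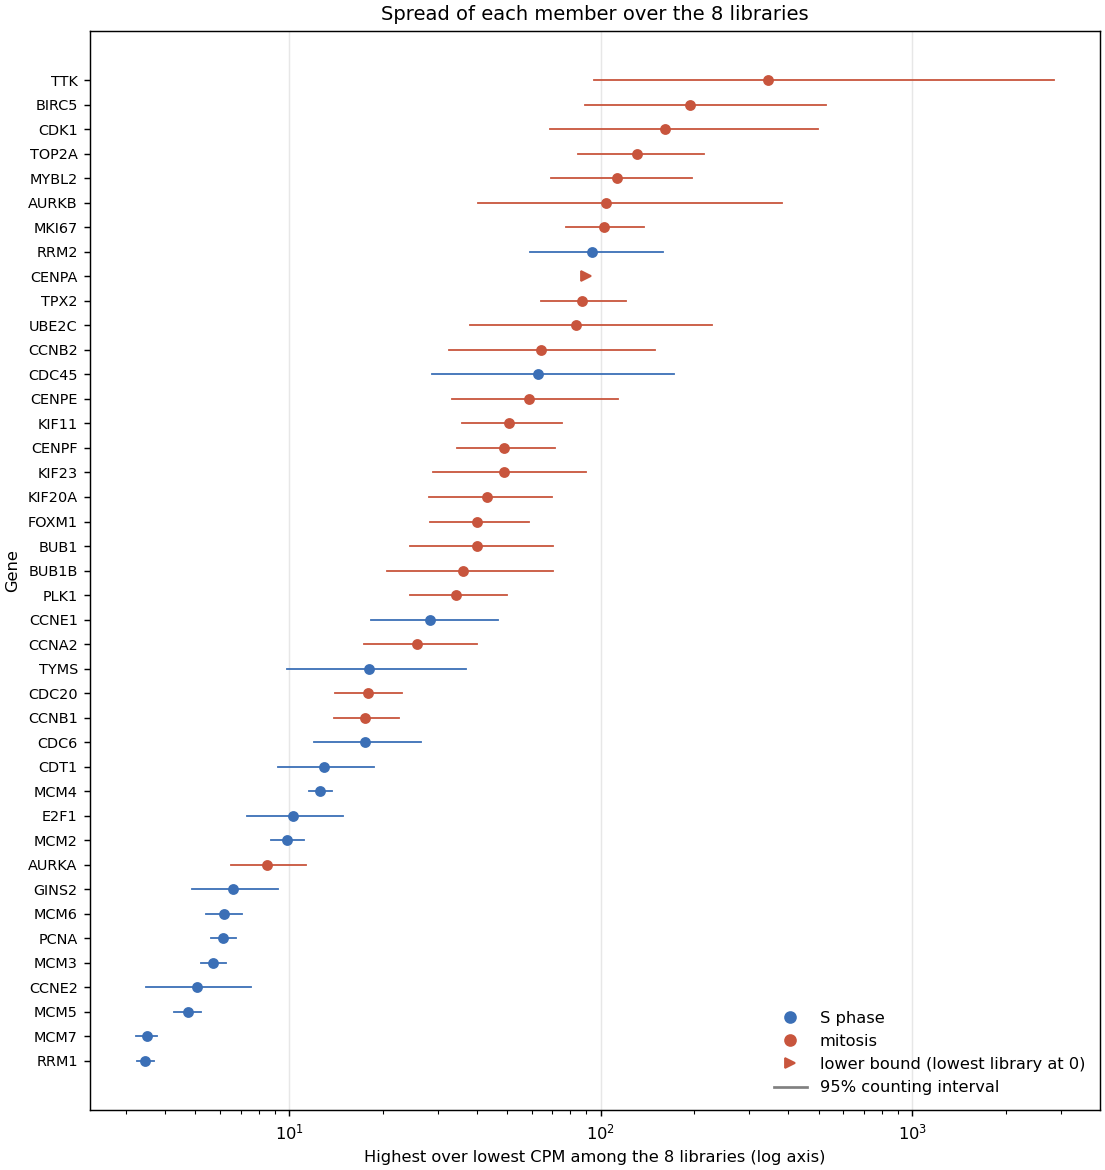
Highest over lowest CPM among the 8 libraries for each member (log axis), S phase in blue and mitosis in red. Lines are 95% counting intervals. The arrowhead, labelled a lower bound, sets CENPA against a floor of 3 counts in control 1. RRM1 and MCM7 sit lowest at 3.46 and 3.49, AURKA at 8.53 is the lowest red point, and RRM2 at 93.7 is the highest blue point.

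The median of highest over lowest CPM was 54.8 over the mitosis members and 9.87 over the S phase members, against 6.48 over all genes tested. Of the S phase members 8 of 17 had a narrower range than any mitosis member. A range over 10-fold was found in 23 of 24 mitosis members (all but AURKA) and in 8 of 17 S phase members, against 37.7% of all genes tested. The mitosis sum divided by the S phase sum was 1.2, 0.249, 0.366 and 0.964 in knockdown 1 to 4 and 0.101, 0.932, 0.593 and 0.536 in control 1 to 4. On column totals control 4 held the highest S phase sum, at 799.9 CPM, with a mitosis sum of 429 CPM below those of knockdown 1, knockdown 4 and control 2. On TMM-scaled totals knockdown 1 had the highest S phase sum (799.1 CPM) and control 4 the next (741 CPM).

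Levels in a separate culture of a dividing carcinoma line were not analysed here. The members' place among 19783 protein-coding genes in the same library, ranked by CPM per kilobase of GENCODE 29 exons, is given instead. The median mitosis member ranked at percentile 76.4, 31, 46.7 and 62.5 in knockdown 1 to 4 and at 24.2, 65.1, 52.9 and 60.1 in control 1 to 4. The median S phase member ranked at percentile 77.4, 42.3, 58 and 70.3 in the knockdown libraries and at 36, 71.1, 67.4 and 74.5 in the controls. In control 1 and knockdown 2 both medians thus lay below percentile 50. MKI67 ranked at percentile 86 in knockdown 1 and 25 in control 1, while PCNA was at 88.9 or above in every library. Per kilobase PCNA was the most abundant member, with a median of 37.8 CPM per kilobase over the 8 libraries, and CCNE2 the least, with 0.554.

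Markers of several cell types moved with these levels in part. Salivary gland markers took 14.2% of counts in knockdown 2 and 15.4% in control 1, and at most 0.0149% in the other 6, knockdown 3 among them with 0.00442%. Skeletal muscle markers took 15.6% in both control 1 and control 3, where the mitosis sums were 16.8 and 343 CPM. Squamous basal markers (KRT5, KRT14 and 5 others) took 0.159% in knockdown 2 and 0.0804% in control 1, but 4.15% in knockdown 3 against 1.07% to 5.52% in the other 5. Knockdown 3 thus combined 4.15% squamous basal markers with a mitosis sum of 84.6 CPM, and knockdown 1 combined 5.52% with 811 CPM. Plasma cell markers (9 genes) were highest in the 3 libraries with low mitosis sums. They took 0.401% in control 1, 0.230% in knockdown 2 and 0.203% in knockdown 3, against 0.0369% to 0.167% in the other 5. The part of these cell types in the result was not tested. With muscle and gland markers taken out of the totals, the mitosis sum was 24.3 CPM in control 1, 57.8 in knockdown 2 and 84.7 in knockdown 3, and 407 or more elsewhere. The S phase sum was then 231.4 CPM in knockdown 3, 231.8 in knockdown 2 and 240.6 in control 1, and 497 or more elsewhere. Its range was 3.46-fold in place of 4.82-fold. On TMM-scaled totals knockdown 2 had the lowest S phase sum (164 CPM), before control 1 (182) and knockdown 3 (308). The order of these 3 libraries thus depended on the denominator for S phase, not for mitosis.

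**Figure D4:**
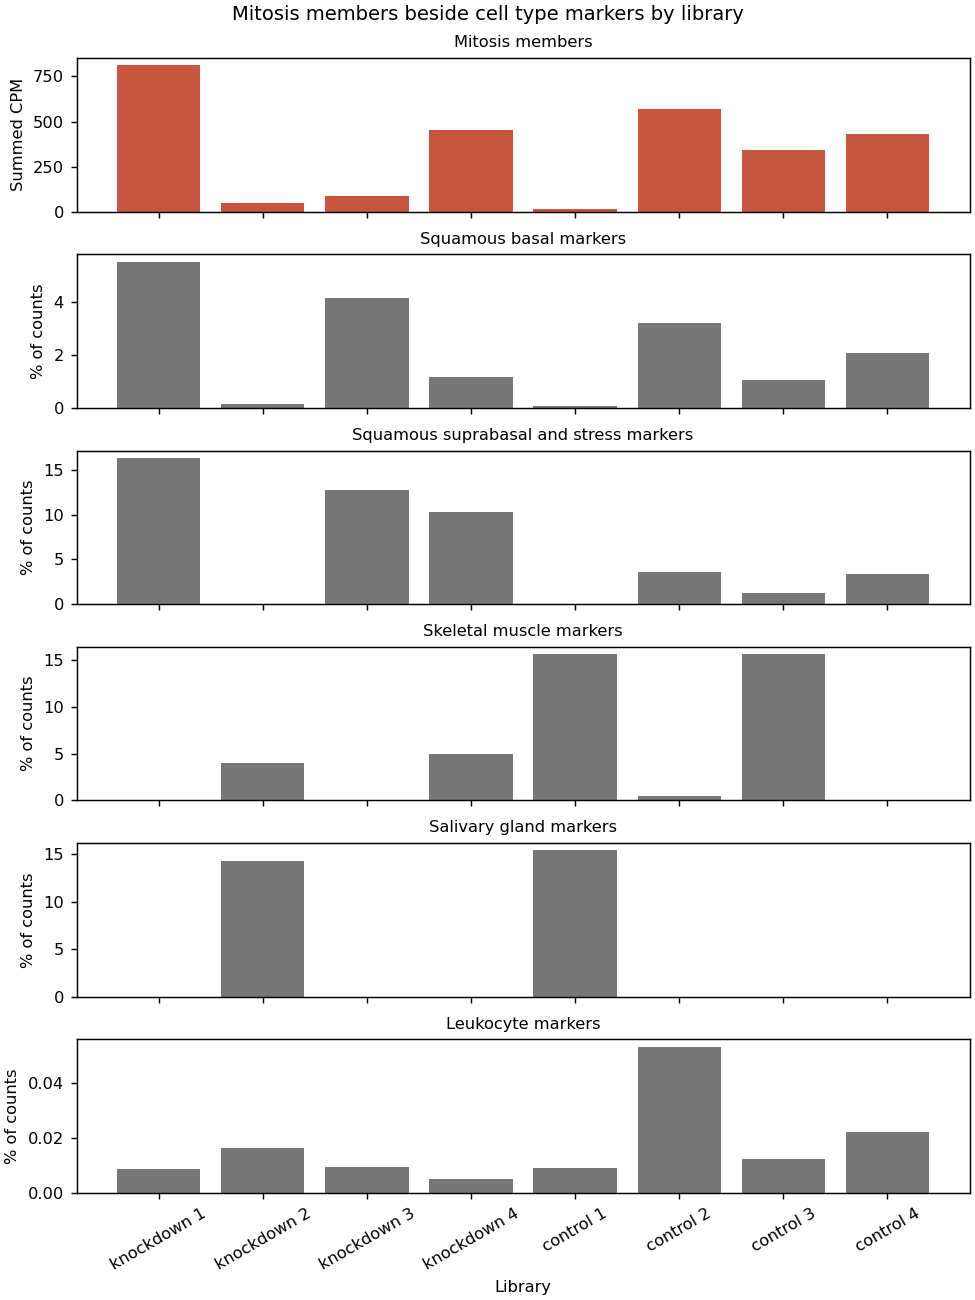
Summed CPM of the mitosis members (top, red) above the percent of counts in 5 marker lists (grey) in the 8 libraries, all axes from 0. The 2 libraries with over 14% gland markers (knockdown 2 and control 1) have mitosis sums of 47.3 and 16.8 CPM, and the 3 libraries with over 10% suprabasal and stress markers (knockdown 1, 3 and 4) have 811, 84.6 and 455 CPM.

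Between the labels, the question was whether the COL1A1 siRNA went with a change in proliferation genes. None of the 41 members passed the test (edgeR quasi-likelihood, Benjamini-Hochberg adjusted p under 0.05 over 21192 genes), and 0% of all genes tested passed it. Even at an unadjusted edgeR p under 0.05 there were 0 members, against 4.78% of genes tested (2.9% higher and 1.88% lower in knockdown). DESeq2 called 0 members and 0.523% of its 27904 genes, and limma-voom called 0 members and 0 genes. For no member did the groups fail to overlap, against 2.35% of genes tested. Of the mitosis members 18 had a fitted value above 0 in knockdown and 6 below, with a median log2 fold change of 0.30; on library totals without TMM scaling, which moved the median of all genes to -0.21, the mitosis median was 0.0086, the S phase median -0.28, and 13 of all members were above 0 and 28 below in place of 25 and 16. For the S phase members it was 7 above and 10 below with a median of -0.037, and over all genes tested the median was -0.046.

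PLK1 had the largest fitted difference of the mitosis members, a log2 fold change of 0.88 (SE 1.06, edgeR adjusted p = 0.989). Its means on column totals were 11 ± 13.6 CPM with the knockdown label and 7.41 ± 7.47 with the control label (SD, n = 4 each). The fitted log2 fold changes use TMM scaling, so they are not the ratios of the means given here. UBE2C stood at 0.76 (SE 1.18), TPX2 at 0.75 (SE 1.18) and MYBL2 at 0.76 (SE 1.31). MKI67 was at 62.1 ± 64.9 CPM with the knockdown label and 56.3 ± 49 with the control label (SD, n = 4 each). Its fitted log2 fold change was 0.45 (SE 1.22). TOP2A was at -0.0010 (SE 1.19). All 6 MCM subunits were fitted below 0 under TMM, led by MCM6 at -0.72 (SE 0.54, edgeR adjusted p = 0.981). MCM6 means on column totals were 16.8 ± 9.29 CPM with the knockdown label and 32.6 ± 16 with the control label (SD, n = 4 each). MCM4 stood at -0.35 (SE 0.74) and MCM5 at -0.037 (SE 0.57). MCM2, MCM3, MCM6 and MCM7 were below 0 under RLE and unscaled library totals too. MCM3 stood at -0.45 (SE 0.45), and CCNE1 at -0.63 (SE 1.04), where control 4 with 18.5 CPM set the control mean of 6.71. For each of these members the libraries of both labels overlapped.

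**Figure D5:**
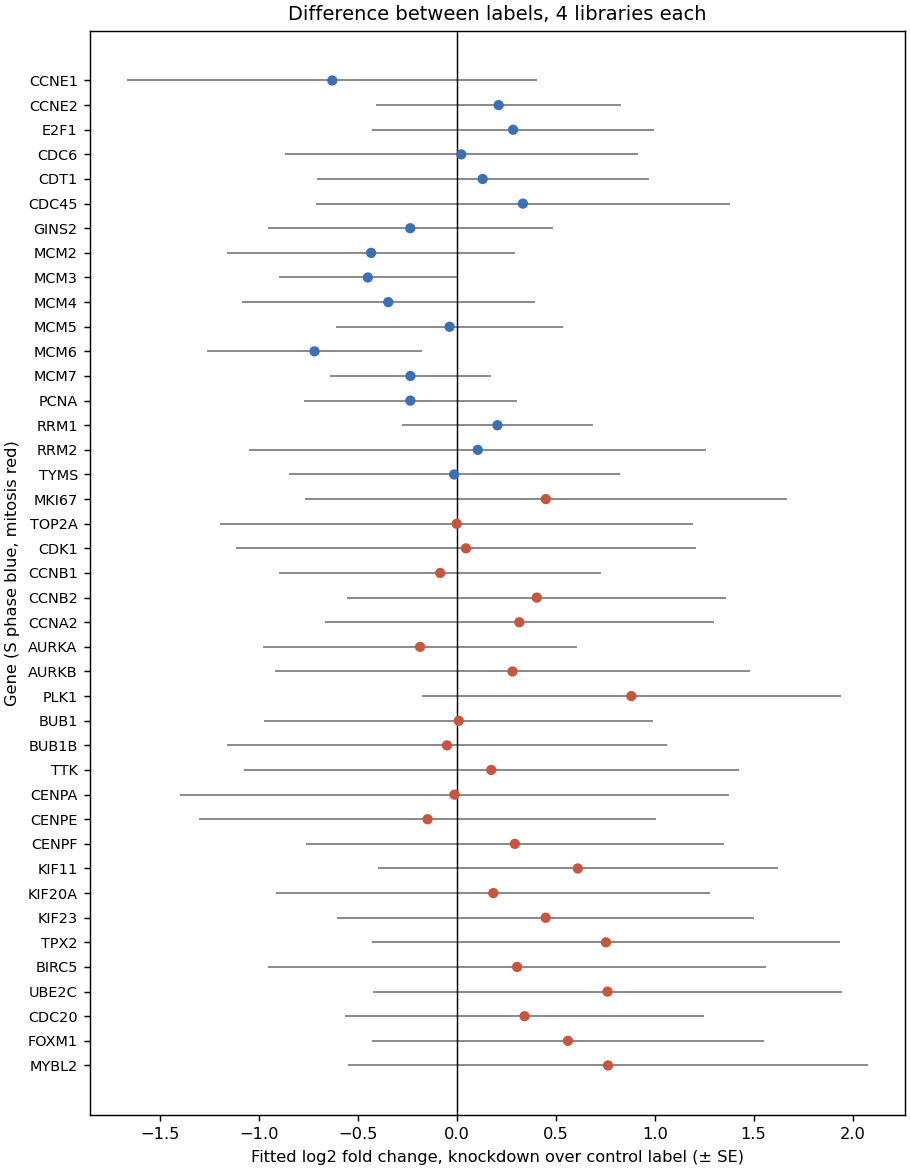
Fitted log2 fold change of each member, knockdown over control label (points, S phase blue, mitosis red), with the standard error as a line. The points lie between -0.72 (MCM6) and 0.88 (PLK1), and the lines reach 0 or nearly so for every member but MCM6, whose adjusted p is 0.981.

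The direction of most members turned when 1 library was left out. Without knockdown 1, the library highest for 25 of them, all 41 members had a fitted value below 0, with medians of -0.72 for S phase and -0.69 for mitosis, and no member passed. Without control 1 the medians were -0.35 and -0.11, and 31 members were below 0. Above 0 were 34 members without knockdown 2, 34 without knockdown 3, 31 without control 2 and 35 without control 4. Over the 8 fits that each left out 1 library, 38 of 41 members changed sign, and MCM3, MCM6 and MCM7 stayed below 0. In only the 4 libraries with at most 1% muscle and gland markers (knockdown 1, knockdown 3, control 2 and control 4), 20 members were above 0 and 21 below, with 0 called.

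Other genes of the cycle, from lists written down with earlier results of these data known, were read the same way. Of 69 other mitosis genes, 66 reached 1 CPM in at least 1 library. Control 1, knockdown 2 and knockdown 3 were the 3 lowest libraries for 62 of those 66. NUSAP1 (highest 0.403 CPM) and PRC1 (highest 0.291 CPM) were among the genes below 1 CPM in every library, and the reason was not tested. ESPL1, separase, which cuts cohesin at anaphase, stood at 43.2, 3.62, 8.89 and 122.8 CPM in knockdown 1 to 4 and at 1.69, 28.8, 23.2 and 9.86 CPM in control 1 to 4. Knockdown 4 was thus highest for ESPL1, which it was for none of the 41 members. For the 52 other S phase genes the same 3 libraries were lowest for 41, with a median range of 8.23-fold and control 4 highest for 26. TTTGAA lay in 44 of 61 promoters of the other mitosis genes (72.1%) and in 2 of 44 of the other S phase genes (4.55%), and an E2F word in 5 of 61 (8.2%) and 21 of 44 (47.7%). In the fit, 0 of 52 other S phase and 0 of 66 other mitosis genes passed, with medians of -0.30 and 0.098. RPA2, of the single-strand binding complex, had the smallest p of these at a log2 fold change of -0.78 (SE 0.37, edgeR adjusted p = 0.981), and POLA1, the polymerase alpha catalytic subunit, was at -0.81 (SE 0.46). H2AZ1, a histone variant gene, was at -0.85 (SE 0.51) and ESPL1 at 1.69 (SE 1.07).

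Genes that act upstream of the 2 waves included a list of 6, the D-type cyclins and the kinases CDK2, CDK4 and CDK6. Of these 6, 2 had control 1, knockdown 2 and knockdown 3 as the lowest 3 libraries. The 6 ran over a median of 5.95-fold. CCND1, cyclin D1, stood at 113, 155, 76.6 and 283 CPM in knockdown 1 to 4 and at 82.1, 145, 233 and 136 CPM in control 1 to 4. Its lowest libraries were knockdown 3 and control 1, followed by knockdown 1. CDK4 and CDK2 stood at log2 fold changes of -0.83 (SE 0.50) and -0.63 (SE 0.55). Of the 9 inhibitors and pocket proteins, 0 had those 3 libraries lowest. CDKN1A, the p21 inhibitor, stood at 484, 61.1, 595 and 208 CPM in knockdown 1 to 4 and at 73.8, 346, 211 and 328 CPM in control 1 to 4. CDKN2B, the p15 inhibitor, stood at 203, 7.07, 387 and 86.1 CPM and at 2.28, 3.48, 20.7 and 184 CPM. Knockdown 3 held the highest level of both inhibitors, and control 1 and knockdown 2 the lowest 2 levels of CDKN1A. CDKN2B and CDKN1A were fitted at 2.12 (SE 1.52) and 0.88 (SE 0.78). CDKN1C, the p57 inhibitor, stood at 2.29, 11, 6.47 and 5.54 CPM in knockdown 1 to 4 and at 14.2, 2.75, 10.9 and 8.5 CPM in control 1 to 4, so libraries with low and with high mitosis sums overlapped. The DREAM core, which holds cycle genes silent in resting cells, ran over a median of 2.73-fold, less than the 4.31-fold of 10 housekeeping genes. LIN54, its DNA-binding subunit for the CHR, stood at 0.49 (SE 0.37) and RBBP4 at -0.26 (SE 0.28). Of the anaphase-promoting complex, ANAPC1 and ANAPC4 stood at -0.35 (SE 0.29) and 0.36 (SE 0.30), and 0 of 16 passed. Control 1, knockdown 2 and knockdown 3 were the lowest 3 for 3 of these 16. The same held for 2 of the 7 DREAM core genes that reached 1 CPM in a library. CCND1, CDKN1C and UBE2S were named after their values were seen, and no gene of these 4 lists passed.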

How the data were processed

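Poly(A) RNA is the molecule named in the labels, while the extraction protocol describes total RNA with ribosomal RNA removed. The authors deposited raw read counts per gene for 8 libraries; STAR, featureCounts of Subread and the build hg38 are named per the submitters' processing notes, with versions, annotation and strand setting not given in the sources used here. Of 63241 rows 17219 were 0 in every library. Column names say KO where titles say KD, and columns were matched to samples by group and replicate number. Levels are counts over the column total (CPM), with intervals and floors (3 counts) for counting error only; per kilobase values use exon lengths of GENCODE 29.

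The members and all gene lists were chosen with earlier results of these data known. The labels were compared with edgeR 4.0.16 (TMM factors, filterByExpr, quasi-likelihood test, Benjamini-Hochberg over 21192 genes, model of intercept and group, all 8 libraries), tested on simulated data. Alternatives were DESeq2 1.42.0, limma 3.58.1 (voom), other scalings and filters, a replicate block and leaving out each library; restricting to libraries with at most 1% muscle and gland markers was chosen after seeing the data. Values in all libraries were written out for 12 members chosen by role, the 3 of each set with the smallest p, and the 2 of each set with the widest and the narrowest range among members with at least 10 counts in every library. From each other list the 2 genes of smallest p were named. Promoter words were searched on both strands of the RefSeq windows.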

Additional observations from a re-analysis of the deposited data

Results flagged for a closer look

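Of 112 groups of 4 libraries tested for one value far from the rest (Dixon's gap test), 8 stood out. That is near the 1 in 20 that chance gives for independent, normally distributed values. The groups share the same libraries and the CPM were not on a log scale, so that rate is only a loose guide. The 8 are listed as a description. In control 1, 4 S phase members lay far below the other controls. CDT1 was at 0.951 CPM against 9.21 to 10.5 CPM, and GINS2 at 1.41 against 6.56 to 7.57 CPM. MCM6 was at 8.70 CPM against 39.1 to 42.3 CPM, and MCM7 at 31.9 against 69.2 to 75.1 CPM. MYBL2 in knockdown 1 was at 58.6 CPM against 0.521 to 9.57 CPM in the other knockdown libraries. COL1A1 in control 2 was at 8183 CPM against 88.9 to 689 CPM in the other controls. CDKN2B in control 4 was at 184 CPM against 2.28 to 20.7 CPM in the other controls. ANAPC1 in knockdown 3 was at 21.2 CPM against 41.2 to 44.4 CPM in the other knockdown libraries.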

How the results depend on the processing

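DESeq2 called 146 genes where edgeR and limma-voom called 0, and none was a member. Leaving out 1 library gave 0 to 1 genes called by edgeR, the 1 without knockdown 2. No member passed under any alternative, and the smallest adjusted p of a member over the edgeR and limma-voom alternatives was 0.656. Signs turned as follows, all on the log2 scale with no call and the cause was not tested: with limma-voom TOP2A 0.13, CDC6 -0.15 and MYBL2 -0.18; with RLE factors TOP2A 0.0067; with a minimum of 1 CPM in 4 libraries TOP2A 0.032. With library totals in place of TMM they were CDK1 -0.23, RRM2 -0.21, CDC6 -0.26, E2F1 -0.013 and RRM1 -0.079. In the 4 libraries with at most 1% muscle and gland markers, chosen after seeing the data, they were CDK1 -0.25 and CDC6 -0.070.

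Same-numbered libraries of the labels did not deviate together (correlations -0.66, -0.48, -0.37 and -0.40), so the numbers were not taken as pairs. With the replicate block 0 genes were called, the medians were -0.36 (S phase) and -0.38 (mitosis), and MKI67 was -0.090, CDK1 -0.47, FOXM1 -0.14, RRM2 -0.34, CDC6 -0.53, TPX2 -0.54 and MYBL2 -0.65.

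Leaving out 1 library at a time gave S phase medians of -0.72 to 0.20 and mitosis medians of -0.69 to 0.70. MKI67 ran from -0.47 to 1.06, TOP2A from -0.75 to 0.38, CDK1 from -0.89 to 0.56, CCNB1 from -0.72 to 0.41 and PLK1 from -0.62 to 1.81. FOXM1 ran from -0.76 to 1.11, MYBL2 from -1.30 to 1.28, TPX2 from -0.82 to 1.15, UBE2C from -0.44 to 1.44 and AURKA from -1.06 to 0.15. PCNA ran from -0.64 to 0.066, MCM2 from -1.26 to 0.24, RRM1 from -0.20 to 0.47, RRM2 from -0.86 to 0.72, CDC6 from -0.80 to 0.36 and E2F1 from -0.29 to 0.81, each lowest without knockdown 1. CCNE1 was -1.54 when knockdown 3 was left out and 0.66 when control 4 was. With a median biological coefficient of variation of 1.05 over the mitosis members and 0.640 over all genes, 4 libraries a label give wide errors, and 9 member values rest on under 10 counts.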
